A study of Mus musculus with 44 samples.

Results

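The 4 joining genes Trbj2-2, Trbj2-3, Trbj2-4 and Trbj2-7 of the mouse T cell receptor β (TRB) locus were followed through the T cell receptors of 44 B16 tumours. A CDR3, the loop of the receptor chain that touches the presented peptide, was given to a gene by its last residues, GQLYF for Trbj2-2, ETLYF for Trbj2-3, QNTLYF for Trbj2-4 and YEQYF for Trbj2-7, and it was counted as TRB if it ended in one of the 12 such endings of the locus. The 4 genes held 37311 of 95913 TRB CDR3s counted per tumour (38.9%), of which 6011 were of Trbj2-2, 9352 of Trbj2-3, 7141 of Trbj2-4 and 14807 of Trbj2-7. AC484 tumours held 22205 of them, anti-PD-1 tumours 11767 and vehicle tumours 3339.

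The tumours were subcutaneous B16F10 melanomas, a mouse melanoma line, grown in wild-type C57BL/6 mice (C57BL/6J in the study's methods) and taken on day 12, with 100 μg of tissue and 1 library per tumour. Of them, 15 came from mice given AC484, an inhibitor of the phosphatases PTPN2 and PTPN1 that restrain cytokine and T cell receptor signalling, 15 from mice given anti-PD-1 (label aPD-1), an antibody against an inhibitory receptor of T cells, and 14 from the group labelled Vehicle, which the study's methods describe as given no treatment. Neither dose nor age is in the labels. The comparison asks whether treatment altered the TCR repertoire of bulk tumour tissue, in which fewer T cells and less receptor RNA per T cell cannot be told apart.

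A TRB chain is assembled in the developing T cell from a V, a D and a J gene segment, with bases trimmed from and added to the ends that are joined. Each J segment writes the end of the CDR3 and the framework that follows it, so the last residues of a CDR3 name the J gene. The mouse locus holds a first cluster of Trbd1 with the Trbj1 genes and, downstream of it, a second cluster of Trbd2 with the Trbj2 genes. Trbd1 can join to either cluster, whereas joining of Trbd2 to a Trbj1 gene would run against the order of the segments. How often a J segment is used before selection depends in part on the recombination signal beside it.

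The germline segments are shown because all that follows rests on their endings. All lie on the plus strand of chromosome 6 in GRCm38 (mm10), in the order in which they are given, 780, 1046, 1185 and 1633 bases downstream of Trbd2, and each is annotated as a J segment, that is, coding sequence that becomes part of the receptor once joined. Capitals mark the codons of the ending used to choose the CDR3s. The segments were read from the genome sequence at the RefSeq positions chr6:41542957-41543007, chr6:41543223-41543271, chr6:41543362-41543410 and chr6:41543810-41543856. Trbd2, at chr6:41542163-41542176, is shown with them since it lies directly before this cluster.
Trbd2: gggactgggggggc
Trbj2-2: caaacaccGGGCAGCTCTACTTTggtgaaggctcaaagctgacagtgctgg
Trbj2-3: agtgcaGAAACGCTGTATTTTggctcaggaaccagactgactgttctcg
Trbj2-4: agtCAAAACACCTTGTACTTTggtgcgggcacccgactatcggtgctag
Trbj2-7: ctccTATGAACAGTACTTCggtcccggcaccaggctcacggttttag

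Translated up to the last CDR3 residue, these segments read NTGQLYF, SAETLYF, SQNTLYF and SYEQYF, so Trbj2-7 gives 6 residues and the other members 7. Of the 51 annotated TRAJ segments of the TCRα locus, 0 had a recognised ending that shared the last 4 residues of any TRBJ ending. A segment without a recognised ending counted as not sharing them. The endings are strict, and a chain that lost the first residue of an ending was not counted. When each CDR3 was given instead to the germline ending it matched over most residues, with at least 4 required, Trbj2-7 gained 6828 CDR3s with 503619 reads, which ended in EQYF without the Y before it. They were 31.6% of its 21635 CDR3s by that measure, and G (23.5%), D (16.4%) and R (13.4%) most often stood in place of the Y. Per tumour the share missed was 31.8% ± 1.80 in AC484, 31.2% ± 3.30 in anti-PD-1 and 33.2% ± 4.58 in vehicle (SD, n = 15, 15 and 14). Trbj2-2 gained 36 CDR3s, while Trbj2-3 and Trbj2-4 gained 0. However, 2595 CDR3s that ended in TLYF matched more than a single gene equally well and were given to none. They can include CDR3s that kept NTLYF, which Trbj2-4 shares with another TRBJ gene, and the length matched was not counted.

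TRB reads ranged from 32948 to 407156 (median 135135) in AC484 tumours, from 58534 to 399662 (199348) in anti-PD-1 tumours and from 5060 to 188185 (56219.5) in vehicle tumours. Distinct TRB CDR3s numbered 1971 to 8300 in AC484, 698 to 3499 in anti-PD-1 and 108 to 1383 in vehicle tumours. In vehicle, 7 tumours held under 500, and AC484 tumour 10 held the most CDR3s, with 64146 TRB reads. The libraries carried 4 index primer sets. Set 1 held 12 vehicle tumours, set 2 held 10 anti-PD-1 and 2 vehicle tumours, set 3 held 7 AC484 and 5 anti-PD-1 tumours, and set 4 held 8 AC484 tumours, so AC484 and vehicle were never compared within a set and the set and the treatment cannot be told apart there. No pair of tumours shared more than 21.5% of the CDR3s of the smaller one.

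Trbj2-7 was the most used joining gene of the locus. Over 44 tumours it held 15.2% ± 1.43 of distinct TRB CDR3s (SD), above Trbj2-1 at 14.0% and Trbj2-5 at 12.5%, and it stood first in 11 of 15 AC484, 13 of 15 anti-PD-1 and 8 of 14 vehicle tumours. It exceeded Trbj2-1 by 1.21 percentage points and in 34 of 44 tumours (permutation of the signs of the paired differences, two-sided, adjusted p = 0.00011 over the 11 neighbouring pairs). The neighbours were picked by rank in these same tumours, so the p-values of this order are a description. Trbj2-3 ranked 4th with 9.66% ± 1.00 and could not be told from Trbj1-1, which followed it at 0.0936 points less (adjusted p = 0.81). Trbj2-4 ranked 6th with 7.86% ± 1.28, 0.802 points above Trbj1-4 (adjusted p = 0.000189). Trbj2-2 ranked 8th with 6.15% ± 0.75 and did not differ beyond its spread from Trbj1-2, 0.0853 points lower (adjusted p = 0.81). With the longest germline match Trbj2-7 reached 20.2%, Trbj2-3 was 5th, Trbj2-4 6th and Trbj2-2 9th.

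**Figure D1:**
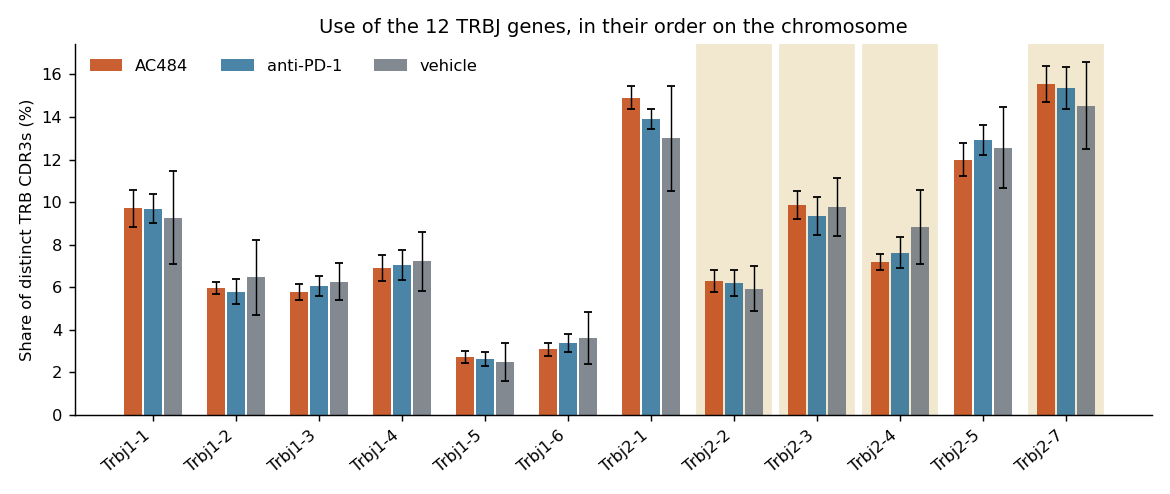
Mean share of distinct TRB CDR3s (y axis, percent) for each of the 12 TRBJ genes in chromosomal order (x axis), with bars for AC484 (n = 15), anti-PD-1 (n = 15) and vehicle (n = 14) and error bars of 1 SD. The shaded genes are Trbj2-2, Trbj2-3, Trbj2-4 and Trbj2-7, of which Trbj2-7 is the tallest in each group and Trbj2-4 has its tallest bar in vehicle (8.84%).

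Across tumours, the share of Trbj2-7 ran closest to that of Trbj2-5, with an SD of 0.167 for the log2 ratio of the 2 shares over 44 tumours. Trbj2-3 was also closest to Trbj2-5 (0.211), Trbj2-2 was closest to Trbj2-7 (0.214) and Trbj2-4 to Trbj1-3 (0.238). All of these shares come from the same libraries and have a common total, so they are described without a test. The SD also holds counting error, which is larger for genes with fewer CDR3s. Trbj1-5, the least used gene, was the farthest from every member.

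Together, the members held 38.9% ± 0.959 of distinct TRB CDR3s in AC484 tumours, 38.6% ± 1.42 in anti-PD-1 tumours and 39.1% ± 1.56 in vehicle tumours. Under edgeR's quasi-likelihood test on the numbers of distinct CDR3s, with Benjamini-Hochberg adjustment over the 12 genes, none of the members passed an adjusted p of 0.05 in any comparison. The share of all 12 genes called was 0% for AC484 against vehicle, 16.7% for AC484 against anti-PD-1 and 0% for anti-PD-1 against vehicle, with 2, 5 and 0 genes at an unadjusted p under 0.05. DESeq2 called 0, 1 and 0 genes. The genes called between AC484 and anti-PD-1 were Trbj2-1, higher by 0.096 on the log2 scale, and Trbj2-5, lower with a log2 ratio of -0.099 (both adjusted p = 0.00977, edgeR).

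Trbj2-4 came nearest to a change. Its share per tumour ran from 6.61% to 8.18% (median 7.07%) in AC484, from 5.97% to 8.51% (7.63%) in anti-PD-1 and from 5.97% to 12.2% (8.68%) in vehicle. The groups overlapped at the low end, but most vehicle tumours lay above the highest AC484 tumour, and the highest values came from vehicle tumours with few CDR3s, such as vehicle tumour 2 with 28 Trbj2-4 CDR3s of 230 (95% Wilson interval 8.56% to 17.0%). Mean shares were 7.19% ± 0.390 in AC484, 7.63% ± 0.743 in anti-PD-1 and 8.84% ± 1.74 in vehicle. In AC484 against vehicle the log2 ratio was -0.17 (SE 0.061), that is 0.886-fold with a 95% interval of 0.816 to 0.963, at an adjusted p of 0.0567 (edgeR). Against anti-PD-1 it was -0.091 (SE 0.039, adjusted p = 0.0606, edgeR), and anti-PD-1 against vehicle gave -0.083 (SE 0.064, adjusted p = 0.86, edgeR).

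That near-miss depended on how shares were tested. A permutation test of the shares themselves, which weights each tumour equally, put the difference of -1.65 percentage points between AC484 and vehicle past the threshold (adjusted p = 0.00462). The methods' t-test of the shares put it past as well (adjusted p = 0.0164). So did edgeR with near-copies removed, CDR3s 1 residue from one with at least 100 times the reads (log2 ratio -0.18, adjusted p = 0.0435). Without the tumours under 500 distinct TRB CDR3s, all of them vehicle, the log2 ratio was -0.074 (adjusted p = 0.65, edgeR), and with every CDR3 left out of a tumour that held below 1% of its maximum over tumours it was -0.12 (adjusted p = 0.213, edgeR). Such rare copies made up 3.79% of Trbj2-4 CDR3s in AC484, 6.08% in anti-PD-1 and 12.1% in vehicle, and their part in the difference was otherwise not tested.

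The other members differed by less. Trbj2-2 ranged from 5.34% to 7.33% (median 6.37%) in AC484, from 4.82% to 7.45% (6.08%) in anti-PD-1 and from 4.07% to 7.82% (6.10%) in vehicle, and the log2 ratio of AC484 to vehicle was 0.022 (SE 0.068, adjusted p = 0.89, edgeR). Trbj2-3 ranged from 8.49% to 10.8% (10.0%), from 7.68% to 11.4% (9.33%) and from 7.28% to 12.5% (9.92%) in AC484, anti-PD-1 and vehicle tumours, with a log2 ratio of 0.021 for AC484 to vehicle (SE 0.055, adjusted p = 0.89, edgeR) and 0.069 for AC484 to anti-PD-1 (SE 0.035, adjusted p = 0.114, edgeR). Trbj2-7 ranged from 14.0% to 17.5% (15.5%) in AC484, from 13.4% to 16.6% (15.6%) in anti-PD-1 and from 10.0% to 17.5% (15.0%) in vehicle, with a log2 ratio of 0.043 for AC484 to vehicle (SE 0.045, adjusted p = 0.67, edgeR). Vehicle tumours spread more widely than AC484 tumours for each of these genes, and the AC484 range lay within the vehicle range or met its upper end. The 95% intervals of the fold for AC484 against vehicle were 0.926 to 1.11 for Trbj2-2, 0.942 to 1.09 for Trbj2-3 and 0.970 to 1.09 for Trbj2-7.

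Counting error alone was larger in vehicle tumours. The median half-width of the 95% Wilson interval of a tumour's share was 0.877, 1.04 and 2.10 percentage points for Trbj2-2 in AC484, anti-PD-1 and vehicle, and 1.3, 1.60 and 3.21 for Trbj2-7. Reads carry no molecular identifiers, so these intervals cover counting error only.

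**Figure D2:**
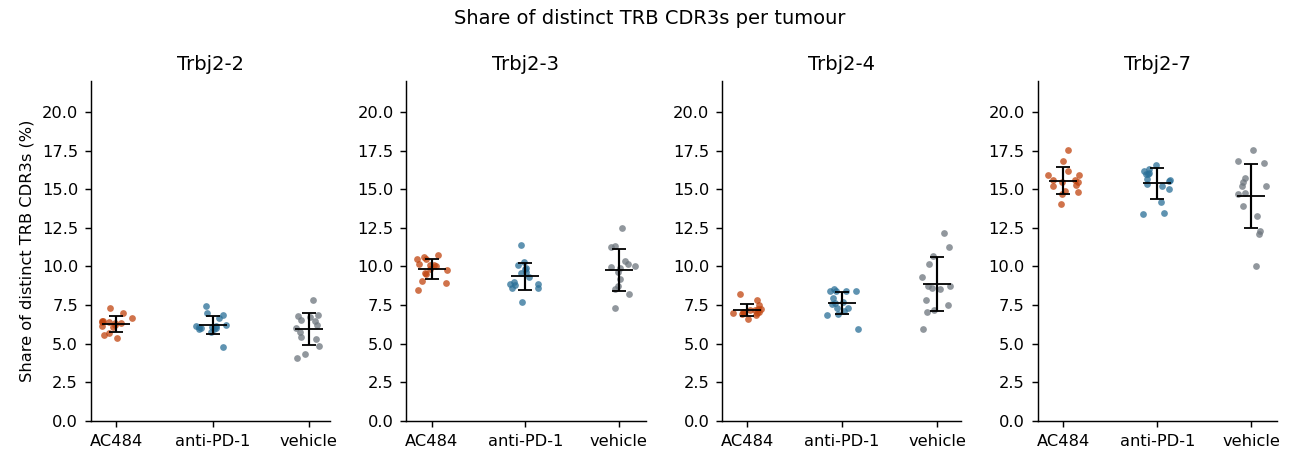
Share of distinct TRB CDR3s (y axis, percent) of the genes Trbj2-2, Trbj2-3, Trbj2-4 and Trbj2-7 in each tumour (points) by group, with the mean and 1 SD as lines. Vehicle tumours spread most, and for Trbj2-4 they reach 12.2%, against 8.18% for the highest AC484 tumour.

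At an equal number of TRB reads, AC484 tumours held the most distinct CDR3s of every member. Each tumour was drawn to 5060 TRB reads, the smallest total. Trbj2-7 gave 132 ± 43.1 distinct CDR3s in AC484, 102 ± 29.9 in anti-PD-1 and 57.1 ± 40.1 in vehicle. Trbj2-3 gave 86.1 ± 29.1, 62.6 ± 18.9 and 36.7 ± 23.2 in AC484, anti-PD-1 and vehicle. Trbj2-4 gave 62.4 ± 19.2, 49.4 ± 13.4 and 30.6 ± 16.4, and Trbj2-2 gave 55.3 ± 17.5, 41.0 ± 11.4 and 23.8 ± 17.1, in AC484, anti-PD-1 and vehicle (SD, n = 15, 15 and 14).

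The ratio of means of AC484 to vehicle was 2.32 for Trbj2-2, 2.35 for Trbj2-3, 2.03 for Trbj2-4 and 2.32 for Trbj2-7, and every member passed the permutation test (two-sided, adjusted p = 4.8e-05 for each). So did all other TRBJ genes (100% of 12), and the members did not stand apart from the locus. The groups still overlapped, as Trbj2-7 ran from 73.1 to 256 in AC484 tumours and from 12.9 to 123 in vehicle tumours. Anti-PD-1 exceeded vehicle 1.72-fold, 1.71-fold, 1.61-fold and 1.78-fold for Trbj2-2, Trbj2-3, Trbj2-4 and Trbj2-7 (permutation, adjusted p of 0.00502, 0.00489, 0.00433 and 0.00433), where 100% of the 12 genes passed as well.

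Between AC484 and anti-PD-1 the differences were smaller, 14.4 CDR3s for Trbj2-2, 23.6 for Trbj2-3, 13.0 for Trbj2-4 and 30.5 for Trbj2-7 (permutation, adjusted p of 0.0247, 0.0247, 0.0462 and 0.0385), and 75% of the 12 genes passed. AC484 tumour 10 was the highest for all members, with 105, 177, 117 and 256 CDR3s of Trbj2-2, Trbj2-3, Trbj2-4 and Trbj2-7. Without it the difference was 9.06 CDR3s for Trbj2-4 (adjusted p = 0.0906, permutation) and 21.7 for Trbj2-7 (adjusted p = 0.0764, permutation), while it was 10.8 for Trbj2-2 and 17.1 for Trbj2-3 (both adjusted p = 0.0487, permutation). Leaving out 1 tumour at a time, the call was lost 19 times and kept 11 times for Trbj2-4, and lost 12 and kept 18 times for Trbj2-7. It was kept each time for Trbj2-2 and Trbj2-3. Trbj2-4 and Trbj2-7 also missed the threshold with the methods' t-test (both adjusted p = 0.0574). The same held with counts below 1% of a sequence's maximum left out (both adjusted p = 0.0525, permutation). Within index set 3, the only set with both groups, 7 AC484 tumours averaged 124 and 5 anti-PD-1 tumours 86.4 Trbj2-7 CDR3s, and no member passed (exact permutation, adjusted p = 0.159 for each).

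The differences were smaller among CDR3s drawn more than once. When a CDR3 had to be drawn at least 2 times, Trbj2-7 averaged 44.5 CDR3s in AC484, 45.7 in anti-PD-1 and 31.1 in vehicle, and Trbj2-2 averaged 18.4 in AC484, 18 in anti-PD-1 and 13.6 in vehicle. No member passed in any comparison then (permutation, lowest adjusted p = 0.064, for Trbj2-3 and for Trbj2-7 in anti-PD-1 against vehicle). In the full data, CDR3s with 1 read were 29.1% of those of Trbj2-7 in AC484 tumours, 13.4% in anti-PD-1 tumours and 26.9% in vehicle tumours, and the part of their different shares in the counts was not tested.

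**Figure D3:**
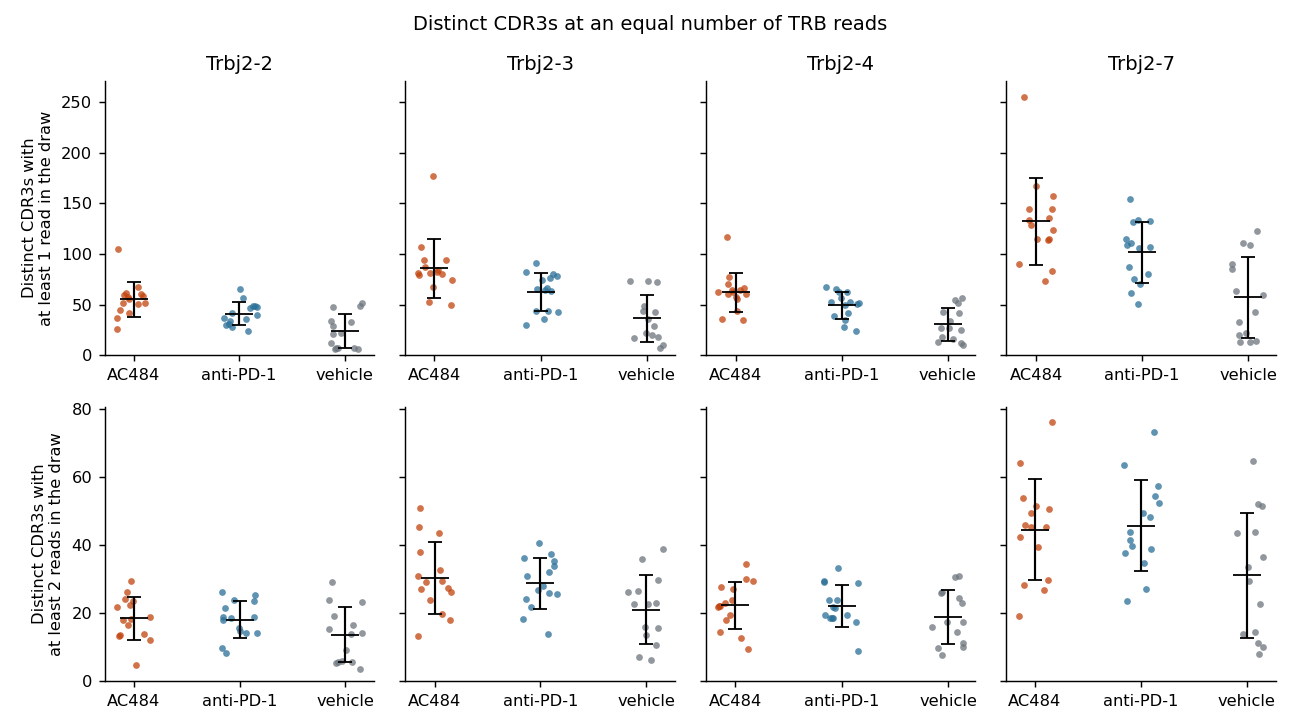
Distinct CDR3s of each gene in a draw of 5060 TRB reads per tumour (y axis, number, mean of 100 draws), with at least 1 read in the upper row and at least 2 reads in the lower row. Points are tumours and lines are the mean and 1 SD; the step down across AC484, anti-PD-1 and vehicle in the upper row (132, 102 and 57.1 for Trbj2-7) is not seen between AC484 and anti-PD-1 in the lower row (44.5 and 45.7).

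Read shares varied more between tumours than shares of distinct CDR3s. The members held 43.0% ± 12.5 of TRB reads in AC484 tumours, 38.8% ± 13.5 in anti-PD-1 tumours and 36.3% ± 18.4 in vehicle tumours (SD). Trbj2-2 held 6.70% ± 5.77 in AC484, 3.40% ± 2.88 in anti-PD-1 and 4.47% ± 4.02 in vehicle. Trbj2-3 held 13.5% ± 8.16, 12.9% ± 8.81 and 9.85% ± 8.68, Trbj2-4 held 8.33% ± 5.52, 8.36% ± 6.24 and 12.0% ± 10.7, and Trbj2-7 held 14.4% ± 7.32, 14.1% ± 8.12 and 10.0% ± 6.14 in AC484, anti-PD-1 and vehicle. None of the 12 genes passed a permutation test of the mean shares in any comparison (0% called, with 0, 1 and 1 genes at an unadjusted p under 0.05 for AC484 against vehicle, AC484 against anti-PD-1 and anti-PD-1 against vehicle, and 0 called by the methods' t-test or by ranks). The member nearest to the threshold was Trbj2-2 in AC484 against anti-PD-1, 3.30 percentage points higher (95% interval 0.0347 to 6.56, permutation, adjusted p = 0.342). The intervals were wide, and that for Trbj2-7 in AC484 against vehicle ran from -0.503 to 9.31 points. That difference of 4.40 points (adjusted p = 0.542, permutation) was 7.21 with the longest germline match (SE 2.77, unadjusted p = 0.0156, adjusted p = 0.188, permutation), 1.57 without the largest TRB clone of each tumour and 2.07 without the tumours under 500 CDR3s. Without the largest clone, AC484 against vehicle gave 0.192 points for Trbj2-3, against 3.65 with it, and -0.260 for Trbj2-4, against -3.63 with it.

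**Figure D4:**
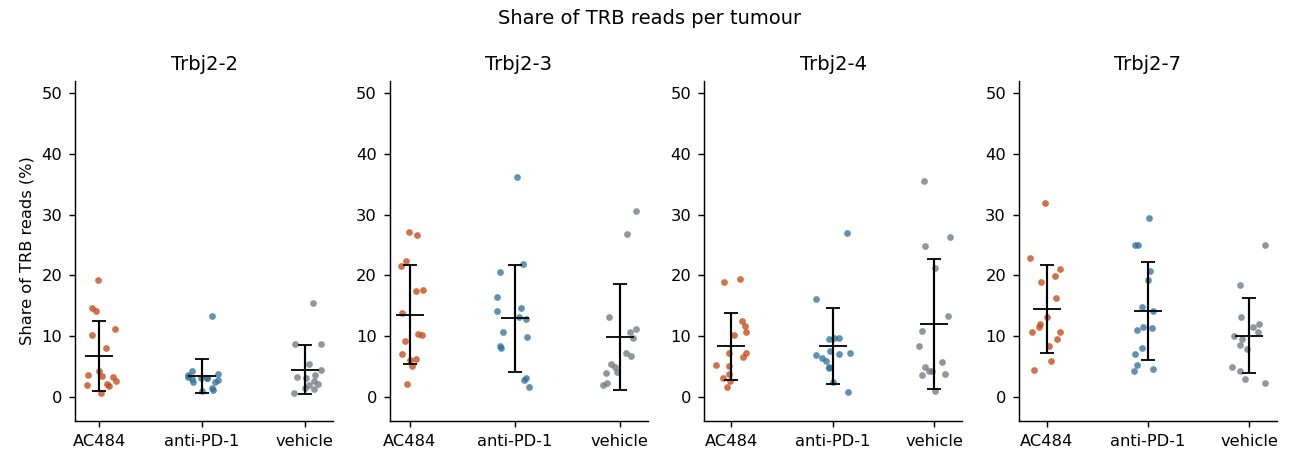
Share of TRB reads (y axis, percent) of each gene in each tumour (points) by group, with the mean and 1 SD as lines. Single tumours stand far above the rest, among them anti-PD-1 tumour 2 for Trbj2-3 (36.3%) and vehicle tumour 14 for Trbj2-4 (35.6%).

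A member supplied the largest TRB clone in 8 of 15 AC484, 7 of 15 anti-PD-1 and 5 of 14 vehicle tumours, Trbj2-4 in 6 of the 44, Trbj2-3 and Trbj2-7 in 5 each and Trbj2-2 in 4. Each other TRBJ gene led between 0 and 5 tumours. Clones of at least 1% of a tumour's TRB reads numbered 30 for Trbj2-2, 85 for Trbj2-3, 66 for Trbj2-4 and 83 for Trbj2-7, and those of at least 10% numbered 4, 6, 8 and 7. For the other TRBJ genes these numbers ran from 9 to 71 and from 0 to 8. The members led 20 of 44 tumours and held 38.9% of TRB CDR3s and 39.9% of TRB reads, so these counts are not read as particular to them. The largest clone of a gene held over 50% of that gene's reads in 13 of 44 tumours for Trbj2-2, 12 for Trbj2-3, 15 for Trbj2-4 and 9 for Trbj2-7, with medians by gene and group between 21.2% and 44.9%. The largest clones of up to 14 residues are shown as the cases in which 1 sequence took the most of a tumour's TRB reads. For Trbj2-2 this was a clone of 14 residues with 12.7% of the TRB reads of AC484 tumour 10 (95% Wilson interval 12.4% to 12.9%). That interval treats reads as independent, although they carry no molecular identifiers, so it understates the uncertainty of the share. The others are shown with their share.
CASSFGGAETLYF: Trbj2-3, 22.6% of TRB reads of AC484 tumour 14
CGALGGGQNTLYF: Trbj2-4, 33.1% of TRB reads of vehicle tumour 14
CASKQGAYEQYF: Trbj2-7, 26.6% of TRB reads of AC484 tumour 1

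Each of these tumours was also the highest of its group in read share of that gene, with 19.2% of TRB reads for Trbj2-2 in AC484 tumour 10, 27.2% for Trbj2-3 in AC484 tumour 14, 35.6% for Trbj2-4 in vehicle tumour 14 and 31.9% for Trbj2-7 in AC484 tumour 1. In distinct CDR3s the same tumours held 6.20%, 8.93%, 7.84% and 16.8% in that order, within the range of their groups. Over tumours, the log2 ratio of read share to share of distinct CDR3s averaged -0.85 for Trbj2-2 (SD 1.19, below 0 in 32 of 42 tumours), -0.48 for Trbj2-7 (SD 0.845, below 0 in 30 of 44), -0.16 for Trbj2-4 (SD 1.21) and -0.054 for Trbj2-3 (SD 1.16). The mean was below 0 for all 12 genes, between -1.32 for Trbj1-5 and -0.035 for Trbj1-1, so these values are a description. They were tested against 0 by permutation of signs among the adjusted feature tests, but no result is drawn from that.

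All 25 member clones of at least 10% of TRB reads were found again in other tumours, 23 of them in a larger share of the tumours with the same index primer set than of those with another set. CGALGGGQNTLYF, with 62201 reads in vehicle tumour 14, was present in all 11 other tumours of its set and in 2 of 32 tumours of other sets, at no more than 0.0340% of TRB reads. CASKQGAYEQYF was present in 10 of 11 tumours of its set and in 4 of 32 others. The exceptions were a Trbj2-3 clone of 15 residues in vehicle tumour 4, found in 2 of 11 tumours of its set and 22 of 32 others, and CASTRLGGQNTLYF of Trbj2-4 in vehicle tumour 8, found in 1 of 11 and 3 of 32.

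Across the 25 clones, the same sequence was found in 150 of 243 pairs with a tumour of the same set (61.7%) and in 118 of 832 pairs with a tumour of another set (14.2%). By gene these shares were 44.4% and 2.94% for Trbj2-2, 70.7% and 24.0% for Trbj2-3, 65.0% and 16.3% for Trbj2-4 and 59.4% and 9.91% for Trbj2-7. Counts below 1% of the sequence's maximum over tumours made up 136 of the 150 pairs and 97 of the 118. Some of the clones were not rare elsewhere, as 6 of the 25 held over 1% of TRB reads in another tumour, among them the Trbj2-3 clone of vehicle tumour 4 (8.82%) and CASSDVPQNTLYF of Trbj2-4, the 17.9% clone of AC484 tumour 9 (4.12%). The index set moves with treatment, and the part of low counts in CDR3 sharing was measured only by leaving them out.

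The members differed in the length of CDR3 that they close. Trbj2-2, Trbj2-3 and Trbj2-4 closed long CDR3s, with tumour means of 14.6, 14.6 and 14.4 residues, which exceeded the mean of all other TRB CDR3s of the same tumour by 0.540, 0.517 and 0.379 residues (SD of the difference 0.190, 0.188 and 0.205) and did so in 42 of 42, 43 of 44 and 41 of 44 tumours. Trbj2-7 closed short ones, with 13.5 residues against 14.2 for the others, a difference of -0.646 (SD 0.182), and was lower in 43 of 44 tumours. Each difference passed the permutation of signs (two-sided, adjusted p = 1.67e-05, from the smallest p that 100000 resamples can give). The germline ending of Trbj2-7 is itself 1 residue shorter. Such lengths were not particular to the members. Trbj1-1 averaged 13.5 and Trbj1-2 13.6 residues, and Trbj1-6 and Trbj2-1 averaged 14.4, as Trbj2-4 did. The most frequent length was 15 residues for Trbj2-2 (33.8% of its CDR3s) and Trbj2-3 (31.1%) and 14 for Trbj2-4 (28.3%) and Trbj2-7 (31.4%).

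How often the whole germline ending stood is given within the CDR3s chosen, so it does not compare trimming among members. The endings used already require 5 of 7 germline residues for Trbj2-2 and Trbj2-3, 6 of 7 for Trbj2-4 and 5 of 6 for Trbj2-7. The whole germline ending stood in 55.9% of Trbj2-2, 45.4% of Trbj2-3, 51.5% of Trbj2-4 and 37.2% of Trbj2-7 CDR3s. Directly before the ending used to choose them, the germline T was kept in 92.7% of Trbj2-2 CDR3s and the germline A in 87.6% of Trbj2-3 CDR3s. Before QNTLYF the germline S stood in 51.5% and G in 22.2%, and before YEQYF S stood in 37.2% and G in 21.4%. Amino acids do not tell a germline base from an added one, so these are matches and not measured trimming.

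Neither length nor the kept ending passed the threshold between treatments in any of 24 permutation tests. The nearest was Trbj2-3, whose CDR3s kept the whole ending in 46.5% ± 2.61 in AC484 tumours, against 42.6% ± 4.58 in anti-PD-1 tumours (3.91 percentage points, unadjusted p = 0.00792, adjusted p = 0.19, permutation), and 41.2% ± 11.4 in vehicle tumours. Mean length of Trbj2-7 CDR3s was 13.5 ± 0.0994 residues in AC484, 13.6 ± 0.0997 in anti-PD-1 and 13.5 ± 0.251 in vehicle.

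The members also differed in the D residues before the ending. Trbd1 alone can encode DRG or GQG and Trbd2 alone DWG, GLG, LGG or WGG, and these strings were searched for between the third residue and the ending used to choose the CDR3. A Trbd2 string stood in 21.5% ± 4.99 of Trbj2-3, 22.3% ± 5.59 of Trbj2-4 and 22% ± 3.77 of Trbj2-7 CDR3s, against 14.0%, 14.1% and 13.5% of the other TRB CDR3s of the same tumours (permutation of signs, adjusted p = 1.67e-05 for each; higher in 42, 42 and 44 of 44 tumours). Those others include the Trbj1 genes, for which it ranged between 0.913% and 2.29%. Any Trbj2 gene would therefore tend to stand above them, and Trbj2-1 and Trbj2-5 had 23.7% and 21.5%. No result about a member is drawn from the tests against these others. Trbj2-2 had 16.7% ± 3.43 against 14.7% (2.00 percentage points, adjusted p = 0.00199, permutation), a call that was lost with the longest germline match (1.23 points, adjusted p = 0.0518). Against the other Trbj2 genes only, Trbj2-2 was lower in Trbd2 strings by 5.64 points, at 16.7% against 22.4%, and lower in 39 of 42 tumours (permutation, adjusted p = 2.86e-05), while the differences of Trbj2-3, Trbj2-4 and Trbj2-7 did not pass (adjusted p of 0.81, 0.59 and 0.65).

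Trbd1 strings were rarer in 3 of the members than in the other TRB CDR3s, which include those of the Trbj1 genes. They stood in 4.55% of Trbj2-3, 3.21% of Trbj2-4 and 3.97% of Trbj2-7 CDR3s, against 5.90%, 6.00% and 6.13% of the others (permutation, adjusted p of 0.00171, 1.67e-05 and 1.67e-05). Trbj2-2 had 5.82% against 5.87% (adjusted p = 0.89, permutation), and against the other Trbj2 genes it was higher by 1.83 points (adjusted p = 7.5e-05, permutation). In that comparison Trbj2-4 remained lower (-1.08 points, adjusted p = 0.00648, permutation), whereas Trbj2-3 (0.487 points, adjusted p = 0.344, permutation) and Trbj2-7 (-0.281 points, adjusted p = 0.647, permutation) did not pass, and Trbj2-1 and Trbj2-5 had 4.25% and 3.89%. A string found in amino acids is a description and does not identify the segment used, since added bases can encode the same residues.

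**Figure D5:**
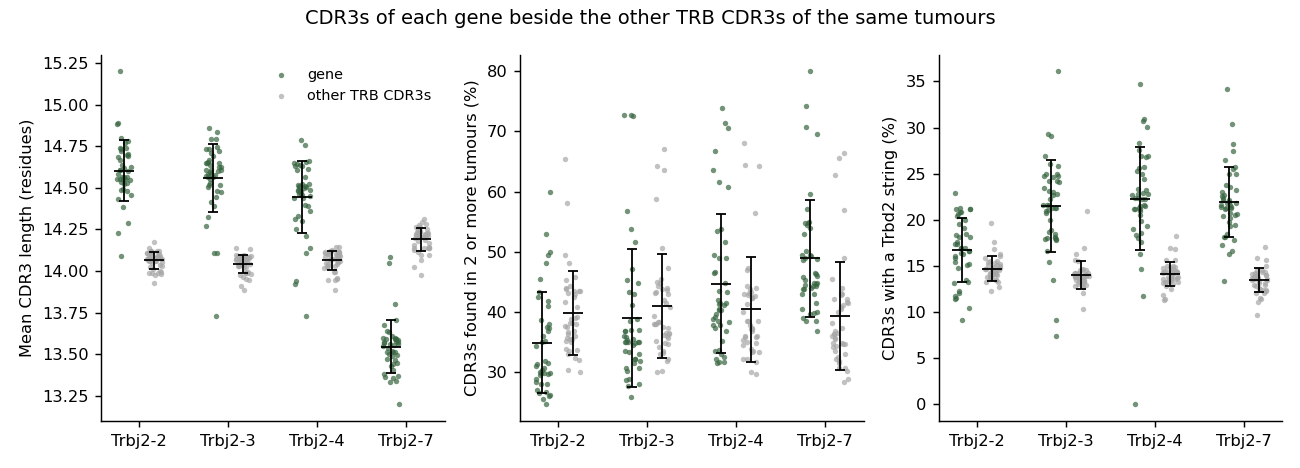
Mean CDR3 length (left, residues), share of CDR3s found in 2 or more tumours (centre, percent) and share with a Trbd2 string (right, percent) for each gene (green) beside all other TRB CDR3s of the same tumour (grey), with 1 point per tumour and the mean and 1 SD as lines; axes do not start at 0. Trbj2-7 lies below the others in length (13.5 and 14.2) and above them in sharing (48.9% and 39.3%).

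Trbj2-7 CDR3s were shared between tumours most often. In each tumour, 48.9% ± 9.66 of its CDR3s were also found in another tumour, against 39.3% ± 8.99 of the other TRB CDR3s (9.60 percentage points, higher in 42 of 44 tumours, permutation of signs, adjusted p = 1.67e-05). Trbj2-4 was also shared more, 44.7% against 40.4% (4.30 points, 37 of 44 tumours, adjusted p = 1.67e-05, permutation), and Trbj2-2 less, 34.9% against 39.9% (-4.95 points, lower in 34 of 42 tumours, adjusted p = 1.67e-05, permutation). Trbj2-3, at 39.0% against 40.9%, was lower by 1.95 points (adjusted p = 0.0302, permutation), which was lost with the longest germline match (-0.997 points, adjusted p = 0.279). For the other TRBJ genes the share ran from 25.6% for Trbj1-5 to 43.3% for Trbj1-1, with Trbj1-3 at 42.4%. The level of Trbj2-4 is therefore not read as particular to it. Short CDR3s of other genes were shared more often than long ones, and within lengths Trbj2-7 was shared in 58.5% against 47.1% at 12 residues and 43.9% against 39.1% at 14, but in 29.3% against 29.0% at 15 and 12.1% against 17.2% at 16. Trbj2-2 was shared less at 12 residues, 41.6% against 50.6%, and more at 15, 33.4% against 28.7%; these values by length pool all tumours and were not tested.

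Counted once each, 18.8% of 10246 Trbj2-7 sequences, 15.6% of 5219 Trbj2-4, 14.3% of 7258 Trbj2-3 and 13.5% of 4805 Trbj2-2 sequences were found in at least 2 tumours, and 70, 29, 21 and 7 of them in at least 10. For the other TRBJ genes the share in at least 2 tumours ran from 9.91% to 16.2%. Trbj1-3 (16.2%), Trbj1-1 (16.1%) and Trbj2-5 (15.8%) stood above Trbj2-4. The sequence of up to 14 residues found in the most tumours is shown for each gene.
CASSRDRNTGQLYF: Trbj2-2, in 12 tumours
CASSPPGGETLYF: Trbj2-3, in 24 tumours
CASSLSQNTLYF: Trbj2-4, in 30 tumours
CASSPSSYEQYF: Trbj2-7, in 29 tumours

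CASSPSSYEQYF was found in 14 AC484, 11 anti-PD-1 and 4 vehicle tumours, at up to 0.203% of TRB reads, and in 22 tumours once counts below 1% of its maximum were left out. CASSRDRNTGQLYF stayed in all its 12 tumours. By contrast, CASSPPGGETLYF was left in 4 tumours and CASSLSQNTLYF in 9. Both held over 1% of TRB reads in several tumours. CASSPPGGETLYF held 18.3% of TRB reads in anti-PD-1 tumour 2, 8.00% in anti-PD-1 tumour 15 and 5.07% in vehicle tumour 14, and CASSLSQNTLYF held 10.7% in anti-PD-1 tumour 3, 2.28% in anti-PD-1 tumour 11 and 1.82% in anti-PD-1 tumour 9. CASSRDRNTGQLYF, in comparison, reached at most 0.207% of TRB reads.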

How the data were processed

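Receptor transcripts of RNA from bulk tumour were captured by the authors (Takara SMARTer chemistry for mouse TCR α and β), read on a MiSeq and assembled with MiXCR into amino acid clonotypes, with mm10 as the build in the submitters' notes; MiXCR's settings are not given in the sources used here. The deposited table gives, per tumour and CDR3, the count of reads the authors assigned to it, for both chains together (170818 entries) and without V gene, nucleotides or chain. Counts were used as deposited. The authors' columns of clone proportion and of concentration were not used. The methods bring replicates to an equal total, which the table does not hold, so TRB reads were drawn without replacement to the smallest total (5060 reads, mean of 100 draws).

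CDR3s were given to the 12 functional TRBJ genes by their ending. Distinct CDR3s per gene were tested with edgeR 4.0.16 (quasi-likelihood, R 4.3.3, library size the TRB total, all groups in 1 fit, biological coefficient of variation 1.92%); read shares, drawn numbers and CDR3 features were tested with two-sided permutation tests of 100000 resamples, or exact ones for groups of fewer than 10, in Python 3.11.15 (scipy 1.17.1, numpy 2.4.6 and pandas 2.3.3). Adjustment was by Benjamini-Hochberg over 12 genes per comparison, or over all tests of a kind for features, at 0.05. A tumour entered for a feature of a gene with at least 10 distinct CDR3s of it. The scripts were tested on simulated data. Replicates are separate tumours, and p-values measure the spread between them.

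Alternatives were DESeq2 1.42.0, TMM factors, the methods' t-test, permuted shares, ranks, other minimum counts, low counts left out (under 1% of a sequence's maximum over tumours), longest germline match, index set, replicate number, tumours left out and the largest clone left out. Chosen after seeing the data were the removal of near-copies (1 residue from a CDR3 with at least 100 times the reads), the comparison with the other Trbj2 genes, and, for drawn numbers or features, the longest match, the removal of low counts and of tumours under 500 CDR3s. The members and lists were chosen with earlier results of these data known. Members are named throughout. Other TRBJ genes are named by rank, by passing the threshold, as the gene of most similar shares (with a pseudocount of 0.5) or beside a member for a CDR3 feature. CDR3s of up to 14 residues are named as the most widespread and the largest of each gene.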

Additional observations from a re-analysis of the deposited data

How the results depend on the processing

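Vehicle tumours, with as few as 108 distinct TRB CDR3s, set the limit of the comparisons with vehicle, and index set and treatment cannot be told apart between AC484 and vehicle. In what follows, no cause of a change was tested. Of the genes past the threshold in distinct CDR3s, 0 in AC484 against vehicle became 1 with near-copies removed, which was Trbj2-4. The count was 2 with permuted shares or the methods' t-test, Trbj2-4 among them. Leaving out single tumours gave 0 to 2 there (1 without vehicle 3, 9, 10 or 11 or AC484 3, 4 or 8, and 2 without vehicle 14). The 2 in AC484 against anti-PD-1 became 0 when drawn to the smallest total, with index set as a block and within set 3 by either test. The count there was 1 with DESeq2, 3 with near-copies removed and 4 without tumours under 500 CDR3s. Leaving out single tumours gave 2 to 4 (4 without anti-PD-1 7 or 15 or AC484 8 or 13). Trbj2-4 in AC484 against vehicle kept its direction in all of these, with log2 ratios of -0.21 to -0.15 and adjusted p of 0.0118 to 0.212 leaving out single tumours, and Trbj2-4 in AC484 against anti-PD-1 passed without tumours under 500 CDR3s (-0.091, adjusted p = 0.0463, edgeR). Those left out were all vehicle tumours. The AC484 and anti-PD-1 tumours stayed the same, with the log2 ratio at -0.091 in both fits, and the spread estimated over all groups changed.

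At an equal TRB total, the counts of 12, 9 and 12 genes in AC484 against vehicle, AC484 against anti-PD-1 and anti-PD-1 against vehicle became 0, 0 and 1 with at least 2 reads in the draw. In AC484 against anti-PD-1 the count was 5 with the methods' t-test, 4 with low counts removed, 0 within index set 3 and 4 to 11 leaving out single tumours (4 or 5 without anti-PD-1 3, 6, 10, 12, 13 or 14 or AC484 2, 5, 6, 7 or 10). Replicate numbers did not pair the tumours: deviations of same-numbered tumours correlated between -0.603 and 0.587 in AC484 and anti-PD-1, over 0.1 in 6 of 15 pairs, and 1 tumour was best matched by its own number. With the replicate block 3 genes passed there, Trbj2-2 and Trbj2-3 among them (adjusted p = 0.0486, permutation), Trbj2-4 (0.0943) and Trbj2-7 (0.0787) not, and the block changed no other call of a member. Within index set 2, with 10 anti-PD-1 and 2 vehicle tumours, 8 of 12 genes passed in anti-PD-1 against vehicle. Trbj2-7 was the only member among them (exact permutation, adjusted p = 0.0455), so the call is not read as particular to it.

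Differences that changed sign, none past the threshold, were these. Without tumours under 500 CDR3s, log2 ratios of distinct shares were -0.020 for Trbj2-2 and -0.0072 for Trbj2-7 in AC484 against vehicle, and 0.017 for Trbj2-4 and -0.015 for Trbj2-7 in anti-PD-1 against vehicle. In AC484 against anti-PD-1, Trbj2-2 had -0.013 with index set as a block, -0.015 within set 3 and -0.235 points of share by its exact permutation, and -9.1e-05 to 0.048 leaving out single tumours; Trbj2-7 had -0.013 when drawn and -0.015 to 0.016 leaving out single tumours. In anti-PD-1 against vehicle, Trbj2-2 had 0.00073 with TMM, 0.0097 with at least 2 reads, 0.0037 with near-copies removed, 0.012 with the replicate block, 0.13 with index set as a block and 0.13 within set 2, 0.273 points by permuted shares and by the t-test, 0.723 points within set 2 by exact permutation, and -0.026 to 0.023 leaving out single tumours, and Trbj2-7 had -0.0578 points within set 2 by exact permutation. Read shares of AC484 against anti-PD-1 differed by -1.85 points for Trbj2-3 and 0.874 for Trbj2-4 without the largest clone, and for Trbj2-4 by 0.733 ranks and by 0.0013 points with low counts removed; leaving out single tumours gave -0.400 to 2.24 for Trbj2-3, -0.819 to 1.302 for Trbj2-4 and -0.884 to 1.46 for Trbj2-7. Within set 2, with 10 anti-PD-1 and 2 vehicle tumours, anti-PD-1 against vehicle gave 1.88 points for Trbj2-2 and -6.999 for Trbj2-3, against -1.07 and 3.07 over all tumours. Drawn Trbj2-7 CDR3s with at least 2 reads differed by -1.15 between AC484 and anti-PD-1. Trbd1 strings of Trbj2-2 differed from the other CDR3s by 0.230 points with at least 30 CDR3s per tumour, 0.0397 with at least 2 reads and 0.330 without tumours under 500 CDR3s, and the log2 ratio of read share to distinct share of Trbj2-3 was 0.013 with at least 30 CDR3s and 0.038 without those tumours.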
